A study of Homo sapiens with 6 samples.

Results

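The INK4 inhibitors, the pocket proteins and their close partners were followed in the human myeloma cell line JJN3, with and without knockdown of CKS1B. The 10 genes were CDKN2A, CDKN2B, CDKN2C and CDKN2D (the INK4 family), CDKN1C, CDKN3, the pocket proteins RB1, RBL1 and RBL2, and the transcription factor E2F4. They were measured through every probe set whose annotation names exactly 1 gene with the Entrez identifier of a member. This gave 24 of the 54613 probe sets other than controls, for 9 of the 10 genes. No probe set carried the name of CDKN2C alone in the annotation used here, so CDKN2C was not analysed here. Total RNA was measured on 6 Affymetrix U133 Plus 2.0 arrays. In the 3 knockdown samples JJN3 carried a virus that expresses a short hairpin RNA (CKS1B shRNA) directed at CKS1B, and in the 3 scrambled samples a virus whose hairpin matches no specific target, so the line and the viral transduction were common to all 6. Titles give each sample a letter (A, B or C) and a number that is consecutive within each letter. Scrambled sample B has "poly" added to its title without explanation. One CKS1B hairpin is named, and separate cultures are not mentioned; the p-values therefore rest on the spread between these arrays, which could be technical.

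INK4 proteins bind the kinases CDK4 and CDK6 and keep D-type cyclins from activating them. Active cyclin D-CDK4/6, followed by cyclin E-CDK2, phosphorylates the pocket proteins, which otherwise hold E2F factors and repress genes of the cell cycle. RB1 mainly binds the activating E2Fs, whereas RBL1 (p107) and RBL2 (p130) bind E2F4 and, with the MuvB proteins, form the DREAM complex of resting cells. CKS1B, the targeted gene, encodes a small protein that binds CDKs and helps the SCF-SKP2 ligase to recognise its substrates. In myeloma, D-type cyclins are commonly overexpressed, and loss of CDKN2C or RB1 occurs in a share of tumours. The arrays measure transcripts, so they say nothing of phosphorylation or of protein stability.

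Values are MAS5 signals on a linear scale, and errors are SDs of the 3 arrays in a group. Each difference is knockdown minus scrambled, taken on values of log2(value + 16), a scale that shrinks differences of dim probe sets. A probe set is called dim on an array where it read below the median of all probe sets of that array, since the table holds no detection calls. CKS1B itself read 481, 269 and 828 on knockdown arrays A to C, against 8266, 8441 and 7294 on scrambled arrays A to C. The difference was -4.02 (SE 0.44), with an adjusted p of 0.122 in limma over all probe sets and 3.15e-05 without knockdown array B. That array stood apart: its correlation with the others over all probe sets was 0.577 to 0.61, against 0.879 to 0.958 among the other 5. Its median was 334, against 117.5 to 201.6 on the others, and the 3' to 5' ratio of the actin control was 12.4, against 1.05 to 2.93. Of the 10 plasma cell markers checked, 9 were above the array median on all 6 arrays, SLAMF7 being below it on all 6. Of the 8 T cell, myeloid, stromal and erythroid markers, 7 had a probe set and 0 were above the median on all 6 arrays. COL1A1, COL1A2 and HBB were above it on 5 arrays, CD3D and CD3E on 3, CD14 on 1 and LYZ on 0. Of the B cell markers MS4A1 was above it on all 6 arrays, at 4578 to 7996, CD79A on 5 and PAX5 on 1.

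With all 6 arrays, 0 of the 24 member probe sets passed an adjusted p of 0.05 in limma, as did 0 of all 54613 (0%). At an unadjusted p under 0.05 there was 1 member, a probe set of CDKN1C, where 1.77% of all probe sets reached that level. The groups did not overlap in 5 of the 24, 4 higher and 1 lower with the CKS1B shRNA, where this held for 7.77% of all probe sets, 4.17% higher and 3.6% lower. Higher were both probe sets of CDKN2B, 1 of the 5 of CDKN1C and 1 of the 2 of E2F4, and lower was the other of E2F4. Without knockdown array B, 0 of the 24 and 0.0201% of all probe sets passed the adjusted threshold. At an unadjusted p under 0.05 there were then 4 members, where 5.66% of all probe sets reached that level. All 4 were higher with the CKS1B shRNA, 3 of CDKN1C and 1 of CDKN2A, where 2.45% of all probe sets were higher and 3.21% lower. The groups then did not overlap in 10 of the 24, against 21.7% of all probe sets. Of these, 4 were higher and 6 lower, against 7.99% and 13.7% of all probe sets. The difference was above 0 in 17 of the 24 with 6 arrays and in 13 of the 24 without that array, where the shares over all probe sets were 58.1% and 38.8%. Centring each array on its median takes 0.23 off every difference with 6 arrays, after which 12 of the 24 members were above 0. The median difference of the members was 0.29 with 6 arrays and 0.12 without that array, against 0.12 and -0.15 over all probe sets. Array B gave the highest of the 6 values in 12 of the 24 members and in 52.7% of all probe sets.

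Upstream sequence was available from RefSeq (GRCh38.p14) for 9 members, all but CDKN1C, in 13 windows, that of RB1 lying at a start inside the gene. A pair of short motifs known from the cell cycle genes that pocket proteins repress was looked for in the 250 bases before each start, on both strands: the E2F letters TTTGGCGC, TTTCGCGC, TTTCCCGC or TTTGCCGC, and the CHR letters TTTGAA. The stretches shown are those of the members that held either, with the motif in capitals. RBL1 held a pair of E2F motifs, 26 and 16 bases before the start (chr20:37095998-37096053, minus strand). CDKN3 held the CHR letters on the opposite strand, beginning 170 bases before the start (chr14:54396807-54396872, plus strand).
RBL1: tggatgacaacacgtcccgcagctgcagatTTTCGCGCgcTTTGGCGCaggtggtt
CDKN3: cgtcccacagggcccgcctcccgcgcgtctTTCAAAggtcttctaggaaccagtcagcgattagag
The E2F letters were found in 2.79% and the CHR letters in 13.3% of all 35116 such windows. A match is a description of the letters and not a measured binding site.

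CDKN2A was bright in the line, with the spread between the knockdown arrays larger than the difference between groups. The gene gives rise to p16INK4a, which inhibits CDK4 and CDK6, and to ARF, which stabilises p53, through different first exons and reading frames. The files do not say which transcript a probe set reads. Its brightest probe set, 209644_x_at, read 5171, 1810 and 10506 on knockdown arrays A to C, against 3980.5, 4061 and 5392 on the scrambled arrays. Array C was the highest and array B the lowest of all 6, so the knockdown arrays enclosed the scrambled ones. The difference was 0.06 (95% interval -1.31 to 1.43, adjusted p = 1.0 in limma). Without array B it was 0.73 (0.10 to 1.37, adjusted p = 0.851). The suffix x marks a class of probe sets that can bind several related transcripts.

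A second CDKN2A probe set, 207039_at, read 991, 397 and 2008 with the CKS1B shRNA, against 1112, 997 and 1022 with the scrambled shRNA. Array order was the same as for the brighter probe set within the CKS1B shRNA group, with C above A and A above B. Its difference was -0.16 with 6 arrays and 0.43 without array B, so the direction turned with that array. The third, 211156_at, was dim on all 6 arrays, at 17.5 to 178 with the CKS1B shRNA and 31.1 to 123 with the scrambled shRNA.

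CDKN2B (p15INK4b), the neighbour of CDKN2A in the genome and an inhibitor induced by TGF-beta in many cells, was dim. Its brighter probe set, 236313_at, read 149, 269 and 172 on knockdown arrays A to C, against 70.6, 81.9 and 29.9 on the scrambled arrays. All CKS1B shRNA values lay above all scrambled values, and 2 of them, on arrays A and C, above the array median. The mean was 196.5 ± 63.9 with the CKS1B shRNA and 60.8 ± 27.4 with the scrambled shRNA (SD, n = 3 each). The difference was 1.5 (SE 0.71, adjusted p = 1.0 in limma), and 1.27 without array B (adjusted p = 0.905).

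The other CDKN2B probe set, 207530_s_at, read 46.2, 94.1 and 52.7 with the CKS1B shRNA, against 21.6, 17.5 and 33.3 with the scrambled shRNA. The groups did not overlap here either, but every value was below the median of its array. Its difference was 0.97 (SE 0.72), and 0.72 without array B. With median centring the difference was 1.27 for 236313_at and 0.74 for 207530_s_at, so both stayed above 0 under that scaling. With quantile normalization they were 1.31 and 0.76.

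CDKN2D (p19INK4d), an INK4 member whose level varies over the cell cycle in many lines, was dim as well. Probe set 210240_s_at read 176, 250 and 26.2 with the CKS1B shRNA, against 43.3, 138 and 39.5 with the scrambled shRNA. It exceeded the array median on knockdown array A and scrambled array B only, and the groups overlapped. The other, 213586_at, read 6.9 to 10.1 on 4 arrays, 43.9 on scrambled array C and 360 on knockdown array B. In the 8 member probe sets that exceeded the array median on fewer than 5 arrays, array B gave the highest value in all 8. It did so in 52.7% of all probe sets of any brightness, and the share among equally dim ones was not counted.

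**Figure D1:**
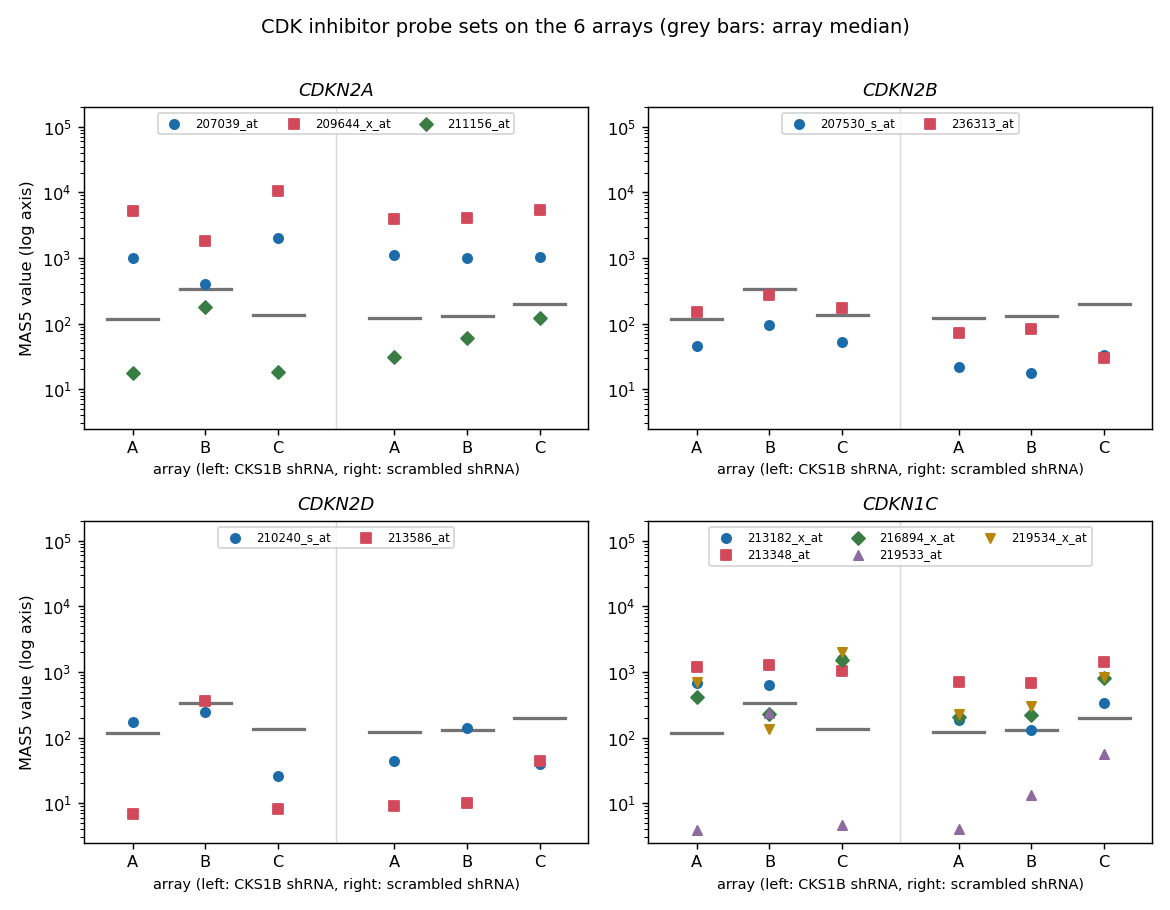
MAS5 values (log axis) of each probe set of CDKN2A, CDKN2B, CDKN2D and CDKN1C on the 6 arrays, knockdown arrays left and scrambled arrays right in each panel. Each point is 1 array, and grey bars mark the median of all probe sets on that array. The CDKN2A probe sets 209644_x_at and 207039_at sit above the bars throughout, those of CDKN2B and CDKN2D mostly at or below them, and CDKN1C 213182_x_at is above its scrambled values on each knockdown array.

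CDKN1C held the member probe set with the smallest p. CDKN1C (p57KIP2) is an imprinted inhibitor of the CIP/KIP family, which binds cyclin-CDK complexes rather than the lone kinase. Probe set 213182_x_at read 675, 643 and 1598 on knockdown arrays A to C, against 182, 129 and 341 on the scrambled arrays. All 3 CKS1B shRNA values lay above all scrambled values. The mean was 972 ± 542 with the CKS1B shRNA and 217 ± 110 with the scrambled shRNA (SD, n = 3 each). The difference was 2.05 (SE 0.51, 95% interval 0.93 to 3.18), or 4.15-fold on the log2(value + 16) scale. Its unadjusted p in limma was 0.00207 and its adjusted p 1.0, so it did not pass over all probe sets.

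The size of that difference held without array B, at 2.28 (95% interval 1.31 to 3.25, adjusted p = 0.261). Leaving out each array in turn gave 1.64 to 2.41, with no adjusted p below 0.261. With array weights of 0.12 for knockdown array B and 0.484 for scrambled array C, and 1.11 to 2.86 for the others, it was 2.69 and passed (adjusted p = 0.000978). In that fit 86 of all 54613 probe sets passed.

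The other CDKN1C probe sets did not show the same separation. The brightest, 213348_at, read 1183, 1287 and 1044 with the CKS1B shRNA, against 698, 687 and 1434 with the scrambled shRNA. Scrambled array C was the highest of all 6, so the groups overlapped, and the difference was 0.40 (95% interval -0.48 to 1.27, adjusted p = 1.0 in limma). Probe set 219534_x_at read 693, 137 and 1986 with the CKS1B shRNA, against 228, 299 and 836 with the scrambled shRNA. Probe set 216894_x_at read 418, 226 and 1514 with the CKS1B shRNA, against 207, 220 and 805 with the scrambled shRNA.

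In both of these, array C was the highest of its group, with the CKS1B shRNA and with the scrambled shRNA. Their differences were 0.58 and 0.63 with 6 arrays, and 1.56 and 1.22 without knockdown array B. Without knockdown array C, and with array B kept, they were -0.29 and -0.11. Array B was the lowest of the knockdown arrays in both, so the direction hung on arrays B and C together. With array weights 219534_x_at also passed, at 2.05 (adjusted p = 0.0368), and 216894_x_at did not, at 1.85 (adjusted p = 0.0785). Probe set 219533_at was dim on all 6 arrays, at 3.9 to 234 with the CKS1B shRNA and 4 to 56.7 with the scrambled shRNA. The 3 probe sets with the suffix x, 213182_x_at among them, are of the class that can bind related transcripts.

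RB1, the retinoblastoma protein, was bright, and its lead probe set gave no sign of a difference larger than the spread. Probe set 203132_at read 2967, 2732 and 3297 on knockdown arrays A to C, against 3167, 3177 and 2234 on the scrambled arrays. Array B lay within the range of the others here. The mean was 2999 ± 284 with the CKS1B shRNA and 2859 ± 542 with the scrambled shRNA (SD, n = 3 each). The difference was 0.08, with a 95% interval of -0.78 to 0.95 and an adjusted p of 1.0 in limma. Without array B the interval was -0.40 to 0.69, so differences of these sizes could not be told from 0.

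The other RB1 probe set, 211540_s_at, read 420, 357 and 191 with the CKS1B shRNA, against 272, 256 and 84.4 with the scrambled shRNA. Array C was the lowest in both groups, and the groups overlapped through knockdown array C. The difference was 0.70 (SE 0.59), and 0.60 without array B.

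RBL2 (p130), the pocket protein that predominates in resting cells, gave the narrowest interval among the lead probe sets with 6 arrays. Probe set 212331_at read 1206, 1579 and 1028 with the CKS1B shRNA, against 1356, 1028 and 1238 with the scrambled shRNA. The difference was 0.06 (95% interval -0.72 to 0.84) and -0.11 without array B. The second RBL2 probe set, 212332_at, read 398.5, 484 and 374 with the CKS1B shRNA, against 368, 444.5 and 290.2 with the scrambled shRNA. The groups overlapped in both probe sets, and the second differed by 0.19 (SE 0.41).

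RBL1 (p107), whose gene is itself a known E2F target and carried the E2F letters shown above, was read by 4 probe sets of different brightness. The lead probe set, 205296_at, read 728, 494 and 460 with the CKS1B shRNA, against 619, 549 and 589 with the scrambled shRNA. The scrambled values lay inside the range of the CKS1B shRNA values, and the difference was -0.09 (95% interval -0.91 to 0.74). Probe set 1555004_a_at read 258, 434 and 211.5 with the CKS1B shRNA, against 373, 261 and 523 with the scrambled shRNA.

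In that probe set knockdown arrays A and C lay below all scrambled arrays and array B did not. The fits with 6 and with 5 arrays gave differences of -0.35 and -0.63 (limma's adjusted p was 1.0 and 0.942). Probe set 1559307_s_at read 103, 755 and 70.9 with the CKS1B shRNA, against 184, 165 and 159 with the scrambled shRNA. Its difference was 0.11 with 6 arrays and -0.87 without array B, which alone read above the scrambled arrays. Probe set 1555003_at exceeded the array median on array B only, where it read 534.5, against 11.1 and 86.9 on knockdown arrays A and C and between 29 and 154 in scrambled samples.

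E2F4, the main repressive E2F partner of RBL1 and RBL2, was read by 2 probe sets whose directions were opposite with 6 arrays and without knockdown array B. The brighter, 38707_r_at, read 2991, 162 and 3109 on knockdown arrays A to C, against 3145, 3242.5 and 3423 on the scrambled arrays. All CKS1B shRNA values were below all scrambled values, with array B alone far below the rest. The difference was -1.47 (SE 0.90, adjusted p = 1.0 in limma) with 6 arrays and -0.10 (95% interval -0.60 to 0.40) without array B.

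The other E2F4 probe set, 202248_at, read 572, 641 and 545 with the CKS1B shRNA, against 498, 336 and 464 with the scrambled shRNA. All CKS1B shRNA values were above all scrambled values. The difference was 0.44 (95% interval -0.39 to 1.27), and 0.38 without array B. The actin 3' to 5' ratio was 12.4 on array B, and its part in the low reading of 38707_r_at was not tested.

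CDKN3 is a phosphatase that removes the activating phosphate of CDK2 and CDK1, and its gene is a known target of DREAM. Both of its probe sets were above the array median on all 6 arrays. The lead probe set, 209714_s_at, read 3013, 5709 and 3331 on knockdown arrays A to C, against 4650, 4540 and 3769 on the scrambled arrays. Arrays A and C lay below all scrambled arrays, and array B above all of them. The difference was -0.16 with 6 arrays and -0.44 (95% interval -0.95 to 0.07, adjusted p = 0.914 in limma) without array B.

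Probe set 1555758_a_at of CDKN3 read 3115, 2340 and 3527 with the CKS1B shRNA, against 4981, 4303 and 3448 with the scrambled shRNA. Array B was here the lowest of all 6, where in the lead probe set it was the highest. Knockdown array C exceeded scrambled array C, so the groups overlapped. The difference was -0.51 (95% interval -1.43 to 0.42) with 6 arrays and -0.34 without array B.

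**Figure D2:**
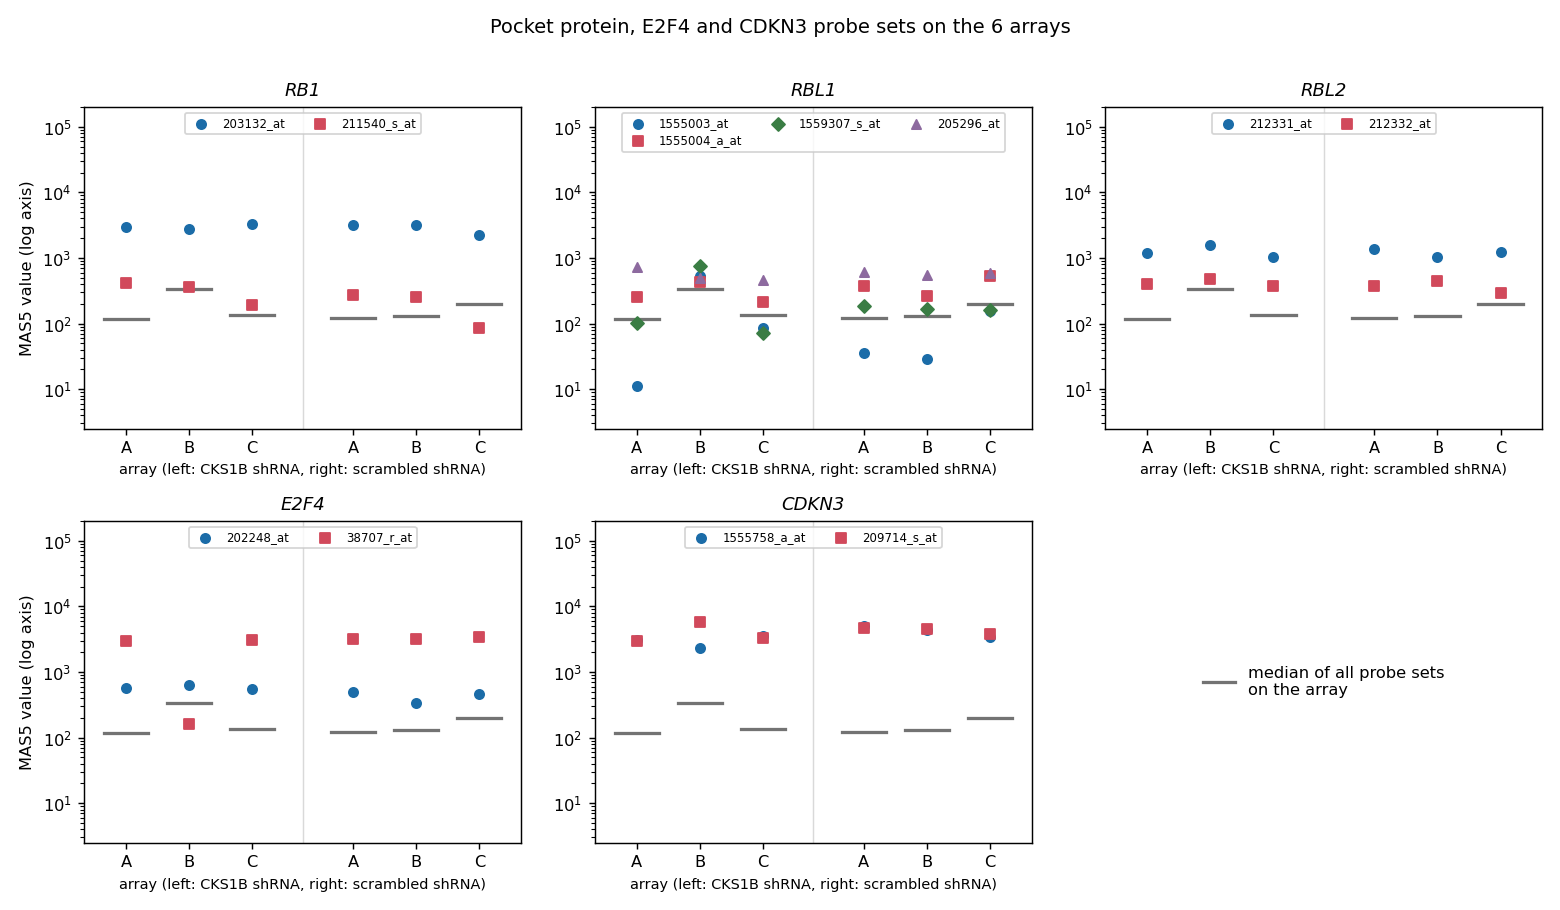
MAS5 values (log axis) of each probe set of RB1, RBL1, RBL2, E2F4 and CDKN3 on the 6 arrays, knockdown arrays left and scrambled arrays right in each panel, with the array medians as grey bars. RB1 203132_at and RBL2 212331_at lie at similar heights on all 6 arrays, while E2F4 38707_r_at drops to 162 on knockdown array B and the dim RBL1 probe sets read highest there.

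Set side by side by role, the lead probe sets of the 3 pocket proteins differed by 0.08, -0.09 and 0.06 for RB1, RBL1 and RBL2. Those of CDKN2A, CDKN2B and CDKN2D differed by 0.06, 1.5 and 0.69, that of CDKN1C by 0.40, that of CDKN3 by -0.16 and that of E2F4 by -1.47. None of the 9 passed with 6 arrays or without knockdown array B. In CDKN1C, CDKN2B, CDKN3, RB1 and RBL2 all probe sets differed in the same direction with 6 arrays, but with median centring 203132_at of RB1 turned to -0.15 and both of RBL2 were below 0, and with quantile normalization 209714_s_at of CDKN3 turned to 0.088. In CDKN2A, RBL1 and E2F4 they did not. In CDKN2D they did with 6 arrays and not without array B, and the same was true of CDKN1C and RBL2.

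**Figure D3:**
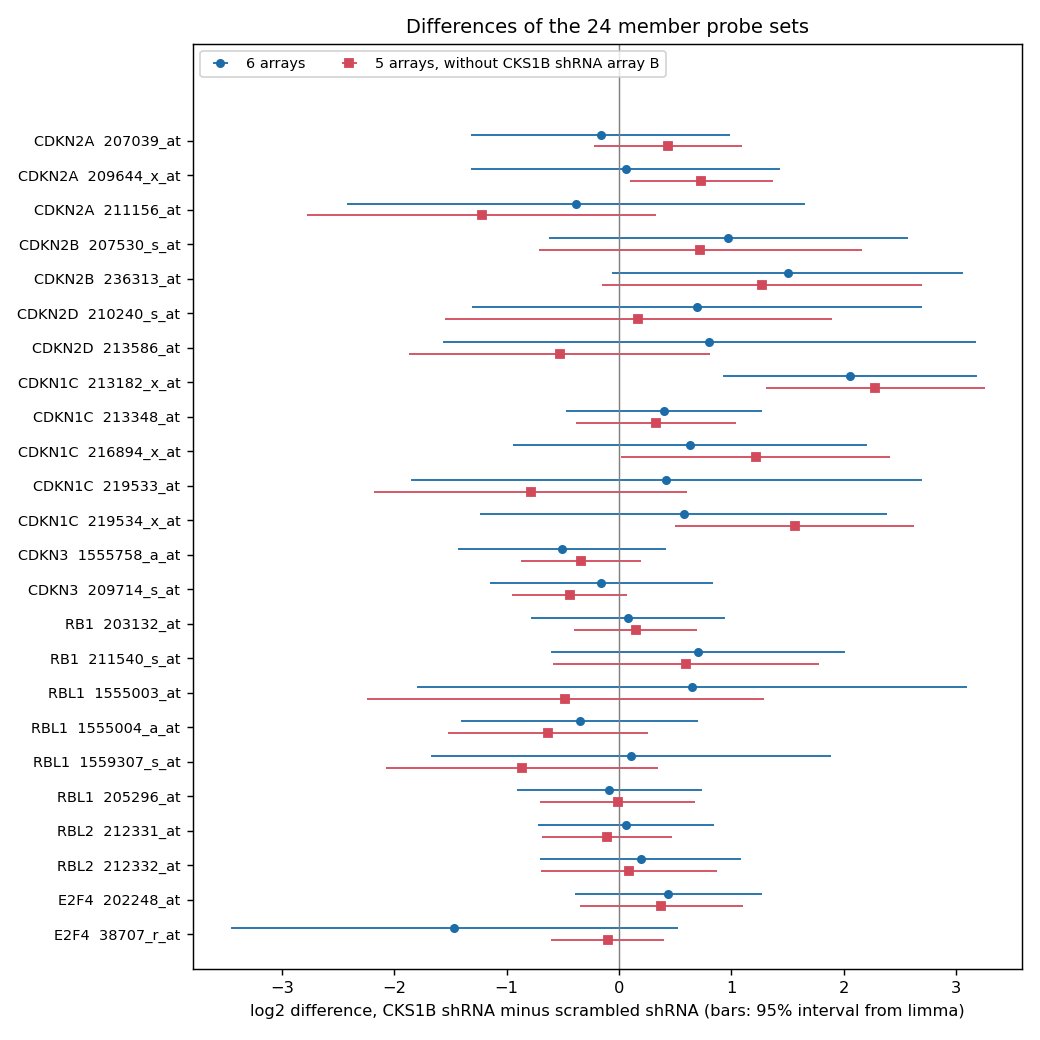
Log2 differences, knockdown minus scrambled, of the 24 member probe sets with 6 arrays (circles) and without knockdown array B (squares), with bars for the 95% interval from limma. CDKN1C 213182_x_at, at 2.05 and 2.28, is the probe set whose interval lies above 0 in both fits, and most of the other intervals include 0.

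The other genes of the pathway were taken from 2 lists chosen by role, each gene through its brightest probe set. Of the 26 partners (kinases, cyclins, other CDK inhibitors, E2F and DP factors, MuvB proteins), 0 passed with 6 arrays or without array B. With 6 arrays 10 were higher and 16 lower, with a median difference of -0.12, and the groups did not overlap in 2 higher and 4 lower genes. Over all 19775 genes read this way, the median was 0.04, and the groups did not overlap in 4.33% higher and 4.69% lower. Without array B, 17 were higher and 9 lower, with a median of 0.14. Over all genes read this way 8121 were then higher and 11654 lower, with a median of -0.11. Array B gave the lowest of the 6 values in 17 of the 26 partners, 15 of these among the 16 lower ones. It did so in 26% of all genes read this way.

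CDKN1B (p27KIP1), the CIP/KIP inhibitor that SCF-SKP2 marks for degradation, read 4337, 6957 and 4212 with the CKS1B shRNA, against 2710, 1491 and 1728 with the scrambled shRNA (difference 1.39, adjusted p = 1.0 in limma). CCND1 (cyclin D1) was dim with the scrambled shRNA, at 126, 237 and 145 with the CKS1B shRNA, against 54.3, 22.3 and 112 with the scrambled shRNA. Its difference was 1.36, and 1.11 without array B. In these probe sets each knockdown value exceeded all scrambled values. No other probe set named CDKN1B alone in the annotation used here, but the other of CCND1, 208712_at, overlapped between the groups, at 45.2, 194.5 and 8.3 with the CKS1B shRNA, against 5.2, 8.7 and 69.0 with the scrambled shRNA.

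The partners lower on each knockdown array in their brightest probe set were CDC25A, TFDP1, E2F7 and TFDP2. CDC25A, the phosphatase that activates CDK2, read 1252.5, 76 and 556 with the CKS1B shRNA, against 1563, 1632.5 and 1309 with the scrambled shRNA (difference -1.90, and -0.83 without array B). TFDP1, the DP subunit that pairs with E2F factors, read 4310, 1123 and 2849 with the CKS1B shRNA, against 4346, 4350 and 4425 with the scrambled shRNA. Another TFDP1 probe set, 242939_at, read 1710, 834 and 2751 with the CKS1B shRNA, against 1014, 930 and 895 with the scrambled shRNA, so it did not share that order. The remaining one, 204147_s_at, read 1064, 545 and 446.5 with the CKS1B shRNA, against 1259, 1103 and 1019 with the scrambled shRNA. It overlapped through knockdown array A alone. E2F7, a repressive E2F, differed by -0.66 (-0.43 without array B), and TFDP2 by -0.60 (-0.33). That order did not hold in every probe set. Both other probe sets of CDC25A, both of TFDP1 and the other of E2F7 overlapped between the groups. Of the 3 others of TFDP2, 2 were lower on each knockdown array and 1 overlapped. The other of E2F7, 241725_at, read 275, 510 and 256 with the CKS1B shRNA, against 409, 465 and 417 with the scrambled shRNA. It overlapped through array B alone. In CDC25A, 204696_s_at read 427, 441 and 197.5 with the CKS1B shRNA, against 401, 303 and 265 with the scrambled shRNA, so that arrays A and B lay above all scrambled arrays. Its probe set 1555772_a_at read 508, 147 and 744 with the CKS1B shRNA, against 912, 767 and 534 with the scrambled shRNA. There the groups overlapped through knockdown array C alone.

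Of the 20 genes listed as targets of E2F or DREAM, 19 had a probe set, and 0 passed in either fit. With 6 arrays 3 were higher and 16 lower, with a median of -0.78. Without array B 7 were higher and 12 lower, with a median of -0.13, against -0.11 over all genes read this way. The groups then did not overlap in 2 higher and 4 lower targets, against 2025 higher and 2800 lower of all 19775 genes. The groups did not overlap with 6 arrays in MCM3 and CDK1, both lower, which is 2 of the 19, where 4.69% of all genes read this way were lower without overlap. MCM3, a subunit of the replicative helicase, read 12738, 272 and 12344 with the CKS1B shRNA, against 13716, 14161 and 13302 with the scrambled shRNA, a difference of -1.95 that was -0.13 without array B.

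CDK1, the mitotic kinase, read 5367, 350.5 and 2892 with the CKS1B shRNA, against 6340, 5854 and 5622 with the scrambled shRNA. Its difference was -1.73, and -0.59 without array B. On array B its probe sets 203214_x_at and 210559_s_at read 4386 and 4878, above their scrambled values of 1755 to 3205 and 2956 to 3606. On knockdown arrays A and C, 210559_s_at read 2580 and 2437, below all its scrambled values. On those arrays 203214_x_at read 2190 and 1000, against 3025, 3205 and 1755 on scrambled arrays A to C. In 13 of the 19 target genes array B, which had the actin ratio of 12.4, gave the lowest of the 6 values, where it did so in 26% of all genes read this way, and the part of RNA quality in this was not tested.

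**Figure D4:**
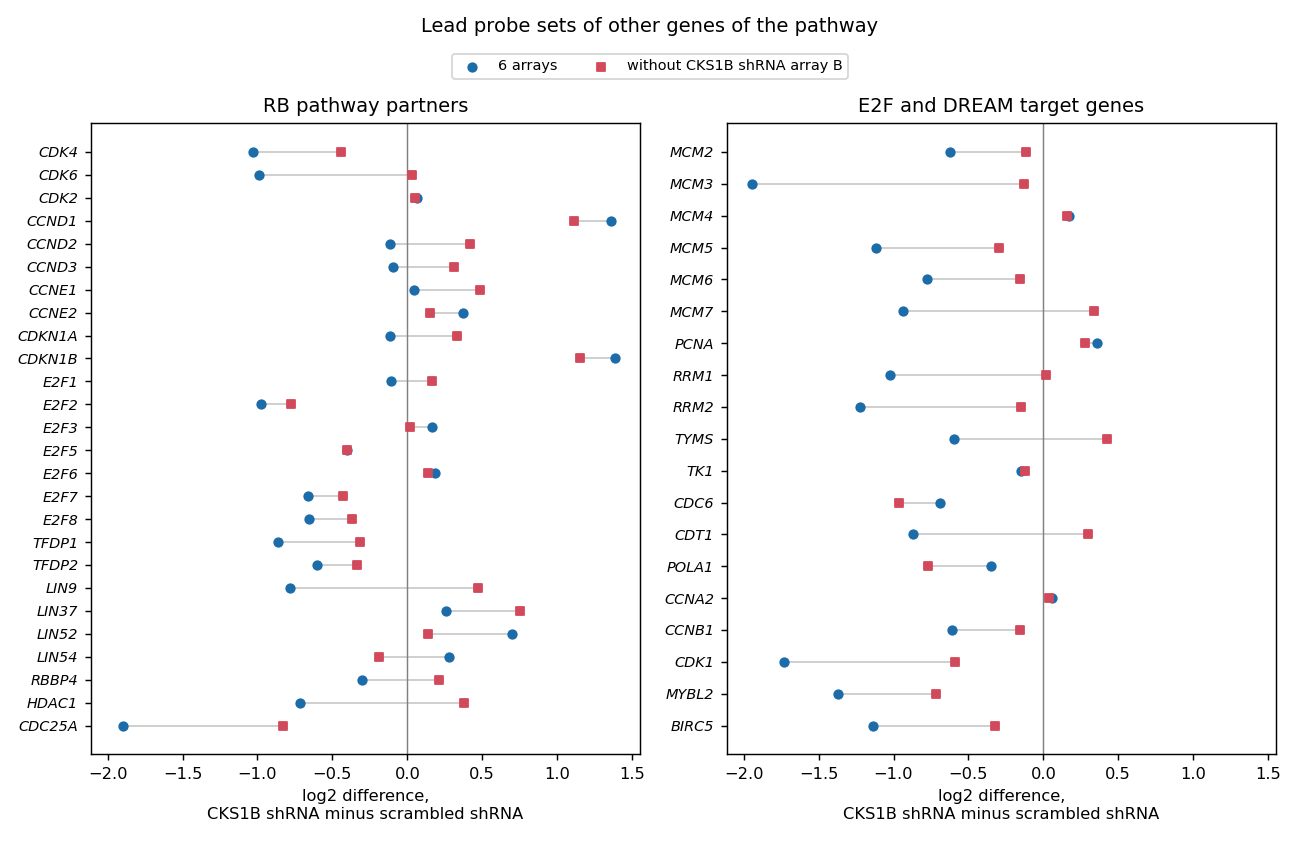
Log2 differences, knockdown minus scrambled, of the brightest probe set of each gene among the partners of the pathway (left) and the targets of E2F or DREAM (right), with 6 arrays (circles) and without knockdown array B (squares). Many target genes sit well below 0 with 6 arrays and near 0 without that array, with medians of -0.78 and -0.13. CDC6 and POLA1 lie further below 0 without it, at -0.97 and -0.77, against -0.69 and -0.35 with 6 arrays.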

How the data were processed

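RNA of 3 knockdown and 3 scrambled samples of JJN3, grouped by their titles, was hybridised to 1 array each. The deposited table gives a linear intensity for each probe set and array, for which the submitters' processing notes name MAS5, with no version or settings given in the sources used here. Their trimmed mean (2% from each end) was 500 on each of the 6 arrays (500.0 or 500.1), and no further normalization could be seen. The median and width of the arrays differed, so values of an array with a compressed scale are not fully comparable.

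Of 54675 probe sets, 62 controls were left out. Names came from the platform annotation: 41091 probe sets had 1 gene, 1801 several and 11721 none here, and 41037 of those with 1 gene matched the RefSeq table of GRCh38.p14 by Entrez identifier. Values were turned into log2(value + 16), and all 54613 probe sets were fitted without a filter in limma 3.58.1 under R 4.3.3 (lmFit, eBayes with trend), with Benjamini-Hochberg adjustment over all of them and a threshold of 0.05. Of the 24 members, 17 would have passed a filter at the median of the mean log2 values. With 3 arrays a group, an exact permutation test (two-sided) cannot go below 0.1, so none was run. The number of arrays limits the precision.

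CKS1B and every member probe set were named; the lead probe set of a gene is its brightest over the 6 arrays. Of the 2 other lists, at most 6 genes each were named, by smallest p among those whose groups do not overlap if none passed. CDC6 and POLA1 were named besides, for their differences without knockdown array B. The members, lists and tests were chosen with earlier results of these data known. Whether the letters pair the arrays could not be told. Deviations from the group means correlated at 0.347, -0.16 and -0.153 for letters A, B and C. For knockdown array B with scrambled array C the value was 0.329. With 3 arrays a group and knockdown array B apart from the rest, these values cannot decide on pairing. Alternatives were pseudocounts of 1 and 64, median centring, quantile normalization, array weights, the letter as a replicate block, filters, and leaving out arrays. Plots used matplotlib 3.10.9 under Python 3.11.15.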

Additional observations from a re-analysis of the deposited data

How the results depend on the processing

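Under all alternatives but array weights, 0 of the 24 member probe sets passed the threshold in limma. With array weights 2 of the 24 did, both of CDKN1C, where 86 of all 54613 probe sets did. With the letter as a replicate block 0 members passed, and the differences are the same by construction in this balanced design. The filters kept 17 of the 24 member probe sets and, with 1 probe set a gene, 7, and leave those differences as they are. With pseudocounts of 1 and 64 all 24 differences had the direction of the main comparison. The count of members whose groups do not overlap was 5 in the main comparison, 3 with median centring, 2 with quantile normalization, 8 with quantile normalization without knockdown array B, and 12 without both arrays of letter B. Over all probe sets the share was 7.77% in the main comparison and 21.7% without knockdown array B. It was not counted for the other settings. Groups of fewer arrays separate more readily, so a larger count there is no result about the members. Leaving out each array in turn gave 5 to 10 members without overlap and 0 to 11 probe sets passing over the whole table, the 11 without knockdown array B. With quantile normalization and without that array 2 passed, and without both arrays of letter B 16. CKS1B passed with a difference of -3.68 in the first of these fits, -3.59 in the second and -3.62 with array weights, and leaving out each array gave -4.41 to -3.63, past the threshold only without knockdown array B. With median centring, quantile normalization or the filters, each with all 6 arrays, it did not pass (adjusted p 0.246 to 0.994). Without that array 17 of the pathway partners and 7 of the targets were higher, against 10 and 3.

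Directions that turned belong to differences that did not pass. With median centring they turned for CDKN2A 209644_x_at (-0.17), RB1 203132_at (-0.15), RBL1 1559307_s_at (-0.13), RBL2 212331_at (-0.17) and RBL2 212332_at (-0.041), and with quantile normalization for CDKN3 209714_s_at (0.088). With quantile normalization and without knockdown array B they turned for CDKN2A 207039_at (0.45), CDKN2D 213586_at (-0.24), CDKN1C 219533_at (-0.52), RBL1 1555003_at (-0.32), 1559307_s_at (-0.65) and 205296_at (0.077), and RBL2 212331_at (-0.093). With array weights they turned for CDKN2A 207039_at (0.48), CDKN2D 210240_s_at (-0.25) and 213586_at (-0.055), CDKN1C 219533_at (-0.24), RBL1 1559307_s_at (-0.84), and RBL2 212331_at (-0.097) and 212332_at (-0.029). Without both arrays of letter B they turned for CDKN2A 207039_at (0.40), CDKN2D 213586_at (-0.72), CDKN1C 219533_at (-0.91), RBL1 1555003_at (-0.83) and 1559307_s_at (-0.88), and RBL2 212331_at (-0.22).

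Leaving out each array in turn gave ranges that cross 0 for CDKN2A 207039_at (-0.71 to 0.43), 209644_x_at (-0.53 to 0.73) and 211156_at (-1.22 to 0.044), CDKN2D 213586_at (-0.53 to 1.49), CDKN1C 216894_x_at (-0.11 to 1.25), 219533_at (-0.79 to 1.04) and 219534_x_at (-0.29 to 1.56), and CDKN3 209714_s_at (-0.44 to 0.020). They also did for RB1 203132_at (-0.085 to 0.17), RBL1 1555003_at (-0.48 to 1.69), 1559307_s_at (-0.87 to 0.71) and 205296_at (-0.29 to 0.036), and RBL2 212331_at (-0.11 to 0.20). The cause of these turns was not tested. The table holds no detection calls, so whether a dim probe set reads its transcript cannot be told.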
